A study of Homo sapiens with 6 samples.

Results

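The genes described here encode the nuclear part of the oxidative phosphorylation system, the 5 enzyme complexes of the mitochondrial inner membrane. They were chosen by name alone: rows of the deposited table starting with NDUFA, NDUFB, NDUFC, NDUFS, NDUFV, SDHA, SDHB, SDHC, SDHD, UQCR, COX4, COX5, COX6, COX7, COX8 or ATP5, without names that end as pseudogenes do or that mark antisense RNAs. Of 127 names with such a start 27 were dropped, and 100 of the 26025 genes of the table remained. They divide into 46 for complex I, 8 for complex II, 9 for complex III, 17 for complex IV and 20 for complex V. The names do not all stand for subunits: 83 encode structural subunits, 12 encode assembly factors, and the others are the ATP synthase inhibitor ATP5IF1, the non-coding RNA NDUFA6-DT, the retrocopy UQCRHL, the readthrough gene ATP5MF-PTCD1 and ATP5S, which is not a structural subunit. NDUFA4 and NDUFA4L2 carry a complex I name but were placed with complex IV, of which NDUFA4 is a subunit.

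As background, complexes I and II pass electrons from NADH and succinate to ubiquinone, complex III passes them on to cytochrome c, and complex IV hands them to oxygen. Complexes I, III and IV pump protons across the inner membrane, and complex V, the ATP synthase, uses the returning protons to make ATP. Complexes I, III, IV and V each combine subunits made from nuclear genes with a few made from mitochondrial DNA, whereas all subunits of complex II are nuclear. NRF1 and the ETS factor GABP are known activators of many of the nuclear genes.

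The cells are NCI-H1299, a long-established line from a human non-small cell lung cancer, and the comparison asks how its transcripts differ after exposure to the stress transmitter norepinephrine (NE). The libraries come from the RNA of 3 Ctrl samples and of 3 samples given NE at 10 µM, all for 48 h in medium low in serum after a period without it. What the Ctrl cells received is written as DMSO in one label and as PBS in another, and the labels do not say whether replicates were separate cultures, so the p-values measure only the spread between these libraries. The model is 1 established line with 1 dose and 1 time. Values are normalized counts, meaning the reads of a gene after division by a single size factor for its library.

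The 6 libraries held between 16852751 and 17979206 reads on genes. Ctrl 3 stood apart from the other libraries, with 7305 genes at 0 against 4829 and 4833 in Ctrl 1 and Ctrl 2 and 3954 to 4416 in the NE libraries, so the main counts are also given without it. The line markers KRT8, KRT18 and VIM had at least 5232 normalized counts in every library and were lower with NE (log2 fold changes of -1.06, -1.62 and -0.38). VIM did not pass the limma test without Ctrl 3 (-0.26, adjusted p = 0.0586). It also did not pass after the 2 corrections described further on (-0.23, adjusted p = 0.325, and 0.04, adjusted p = 0.885). Of 5 markers of other cells, PTPRC, CD3E and HBB were not listed and PECAM1 stayed at or under 36.6 in every library, whereas EPOR was at 255 to 432 normalized counts. The part of these markers in the results was not tested. In bulk RNA a change in the make-up of a culture and a change in RNA per cell cannot be told apart.

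A few promoters are shown first, since sequence features did not enter the choice by name. RefSeq promoters (GRCh38.p14) were matched to 78 of the 96 members that could be tested, and the 250 bases before the start site were searched on both strands. The NRF1 core GCGCATGC stood in 13 of 78 members (16.7%) and in 5.20% of the 10953 promoters of all tested genes. The ETS core CCGGAAG stood in 22 of 78 (28.2%, against 16.5%), and the palindromic cAMP response element TGACGTCA in 4 (5.13%, against 3.11%): ATP5MC1, ATP5ME, NDUFA10 and NDUFB2. The letters of these motifs do not overlap in the promoters printed below, chosen to show both cores or 1 of them in windows that contain no annotated exon of GENCODE v44. Capitals mark the NRF1 core or its reverse complement GCATGCGC, and the ETS core or its reverse complement CTTCCGG.
COX5B: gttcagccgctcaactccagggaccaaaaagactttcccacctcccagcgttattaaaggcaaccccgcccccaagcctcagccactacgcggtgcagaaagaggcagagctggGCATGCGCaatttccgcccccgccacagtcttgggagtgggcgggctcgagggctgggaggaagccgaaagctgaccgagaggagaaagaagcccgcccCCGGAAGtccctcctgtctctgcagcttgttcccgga
SDHB: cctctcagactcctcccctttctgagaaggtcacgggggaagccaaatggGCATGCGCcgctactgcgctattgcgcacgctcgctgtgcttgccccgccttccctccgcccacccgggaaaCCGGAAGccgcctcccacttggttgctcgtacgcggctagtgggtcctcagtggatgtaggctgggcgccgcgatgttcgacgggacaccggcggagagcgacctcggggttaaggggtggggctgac
COX8A: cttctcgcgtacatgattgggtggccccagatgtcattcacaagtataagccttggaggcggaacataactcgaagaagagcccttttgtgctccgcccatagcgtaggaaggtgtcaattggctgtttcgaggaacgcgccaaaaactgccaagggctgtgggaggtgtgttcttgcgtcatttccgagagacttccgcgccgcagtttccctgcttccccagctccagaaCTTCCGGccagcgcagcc
COX6B1: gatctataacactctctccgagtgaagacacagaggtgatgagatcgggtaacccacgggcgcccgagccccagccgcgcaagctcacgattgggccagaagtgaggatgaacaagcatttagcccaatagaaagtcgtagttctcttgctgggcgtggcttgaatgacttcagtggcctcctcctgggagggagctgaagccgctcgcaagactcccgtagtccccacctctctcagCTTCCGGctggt
The COX5B window is chr2:97645812-97646061 on the plus strand, with the NRF1 core starting 136 and the ETS core 37 bases before the start site. The SDHB window is chr1:17054033-17054282 on the minus strand, with the NRF1 core at 200 and the ETS core at 128 bases. The COX8A window, chr11:63974370-63974619, and the COX6B1 window, chr19:35648073-35648322, lie on the plus strand and hold an ETS core at 18 and 12 bases before the start site. A match is a run of letters and not a measured binding site.

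After NE, transcripts of the respiratory chain were predominantly lower. Differences were tested with limma on log2(normalized count + 1) for 15013 genes whose mean normalized count reached 10, and a gene was called lower or higher at a Benjamini-Hochberg adjusted p under 0.05. Of the 96 members tested, 53 were lower and 2 were higher, and 41 did not pass the threshold, whereas among all tested genes 25.5% were lower and 24.6% were higher. The median log2 fold change of the members was -0.56, a fall of 32.3%, beside 0.01 over all tested genes, and 86 of the 96 values were negative. In 53 members every NE library lay below every Ctrl library, an order that 28.9% of all tested genes showed, and in 3 members (NDUFA5, NDUFAF7 and UQCRC2) every NE library lay above, against 29.7%.

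**Figure D1:**
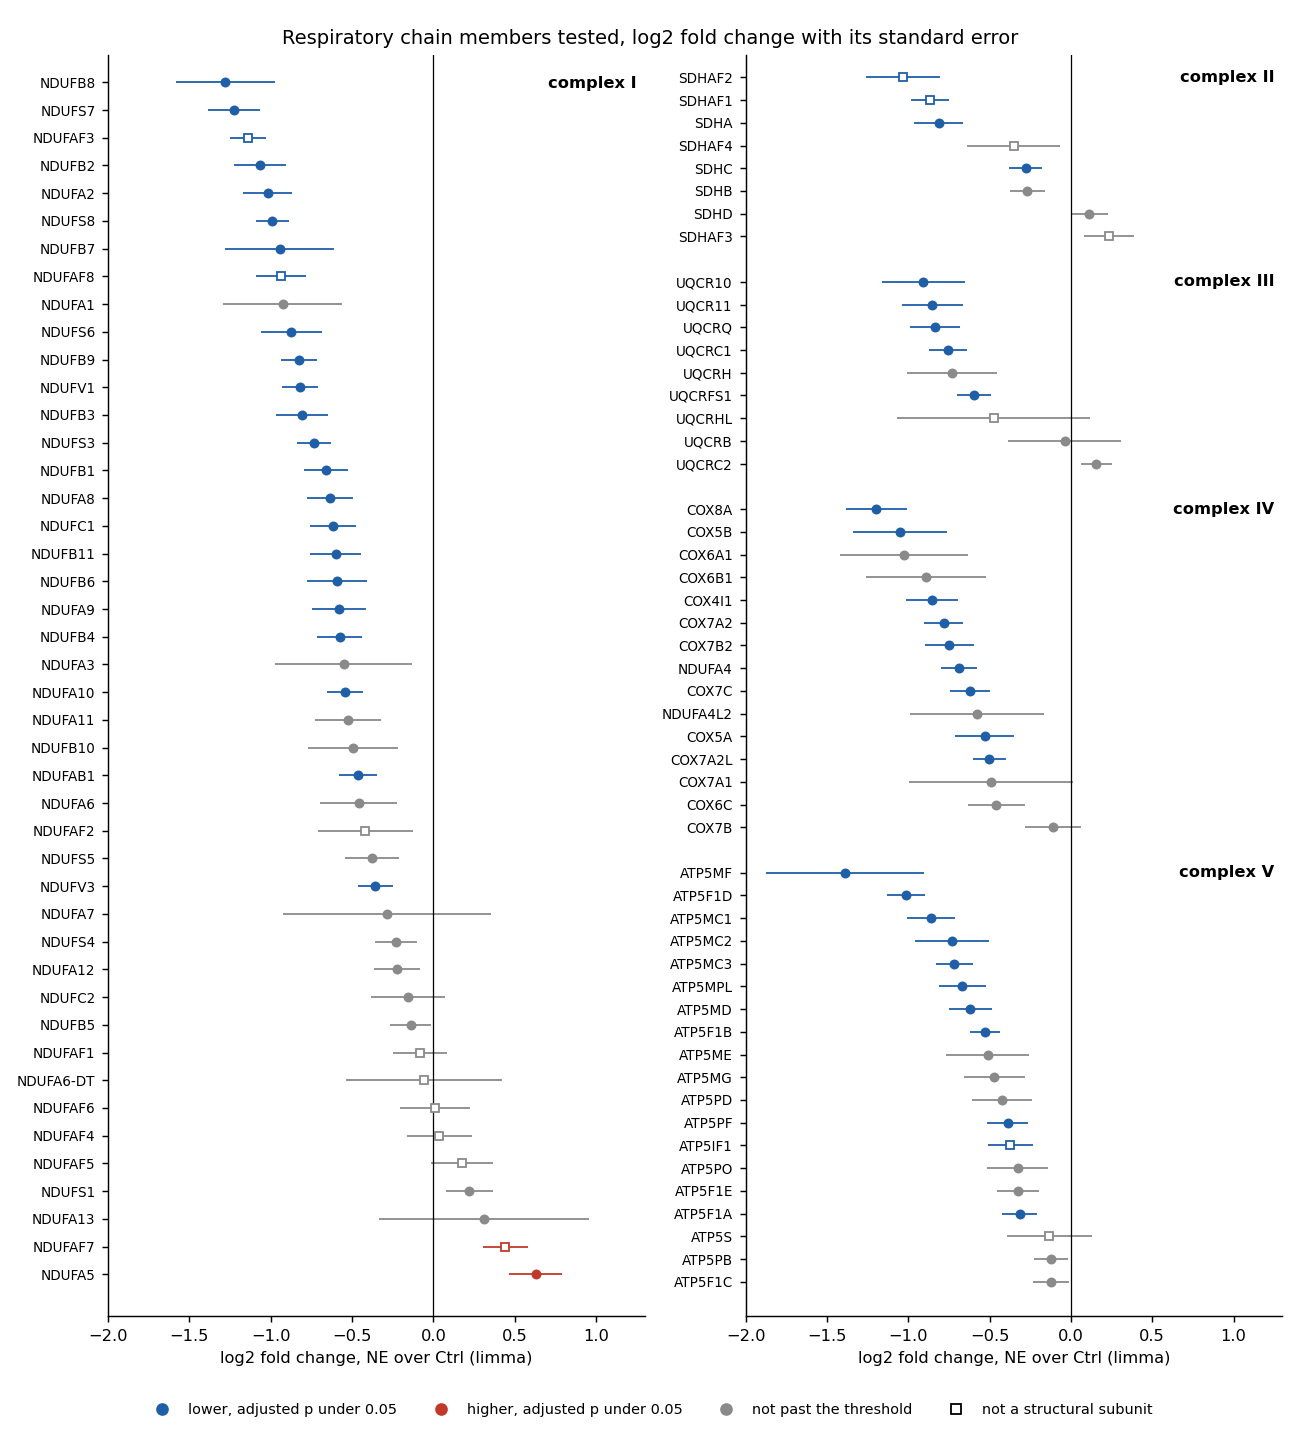
Log2 fold change of NE over Ctrl (horizontal axis) for tested members by complex, with 1 of complex I left out, and with the standard error from limma as a bar; blue and red mark an adjusted p under 0.05, and open squares mark genes that are not structural subunits. Most points lie left of 0, between -1.39 for ATP5MF and 0.63 for NDUFA5.

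Counted as a share of the library, reads on all members made up 0.909%, 0.928% and 0.843% in the Ctrl libraries and 0.582%, 0.677% and 0.723% in the NE libraries. The groups did not overlap in this share, and the highest NE library was NE 3. The same order held for each complex. Complex V, which drew the most reads, had 0.325% to 0.336% in Ctrl and 0.231% to 0.274% in NE, and complex I had 0.204% to 0.216% against 0.144% to 0.175%. For complex IV the groups were close at their edges, since Ctrl 3 held 0.150% and NE 3 held 0.142%, whereas Ctrl 1 and Ctrl 2 held 0.206% and 0.212%.

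**Figure D2:**
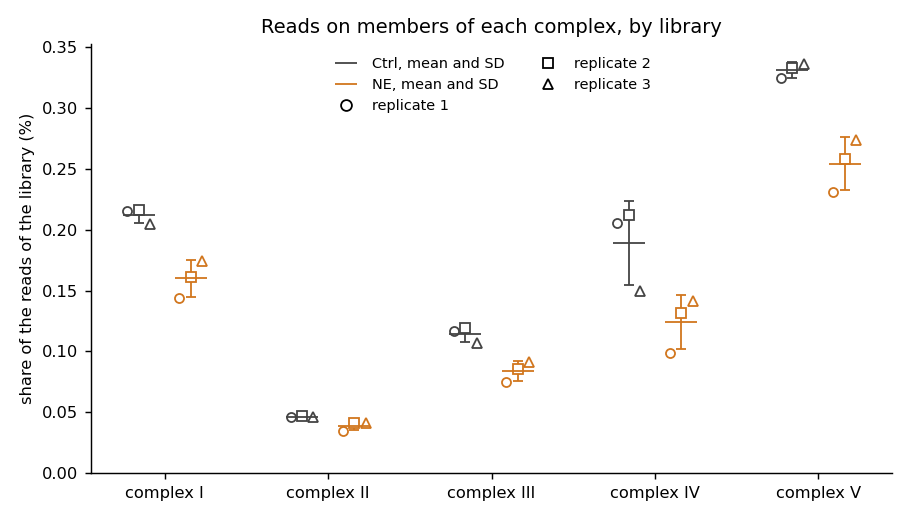
Share of the reads of each library (vertical axis, %) on the members of each complex, with 3 Ctrl (grey) and 3 NE (orange) libraries as symbols and their mean and SD as bars. In each complex the Ctrl symbols lie above the NE symbols, and in complex IV Ctrl 3 (0.150%) sits near NE 3 (0.142%).

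Lower transcripts were found in all 5 complexes. Among structural subunits 22 of 36 tested for complex I were lower (median log2 fold change -0.59), 2 of 4 for complex II (-0.27), 5 of 8 for complex III (-0.74), 9 of 15 for complex IV (-0.69) and 10 of 17 for complex V (-0.51). Without Ctrl 3 these counts were 28 of 36, 3 of 4, 7 of 8, 12 of 14 and 13 of 17. Over all tested genes the share called lower was 25.5% with all libraries and 32.5% without Ctrl 3. It was 19.6% after the correction for GC content and length described further on. Counts of lower subunits in the next paragraphs are read against these shares. The only structural subunit called higher was NDUFA5 of complex I, and its value was negative after the corrections for GC content described further on. Whether the complexes differ from each other was not tested.

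In complex I the nuclear subunits of the catalytic core, which carry the flavin and the iron-sulfur clusters, were lower in 5 of the 6 tested, and in 2 of 6 after the correction for GC content and transcript length described further on. NDUFS7, an iron-sulfur subunit next to the quinone site (chr19:1383527-1395589, plus strand), had 586, 551 and 514 normalized counts in Ctrl and 207, 291 and 216 in NE. The groups were far apart, with a log2 fold change of -1.22 ± 0.16 (SE, adjusted p = 0.000405). NDUFS8, another iron-sulfur subunit, was lower by a similar amount (-0.99 ± 0.10, adjusted p = 0.000162), as was NDUFV1, which binds NADH (-0.82 ± 0.11, adjusted p = 0.000498). After that correction NDUFS7 was at -0.47, NDUFS8 at -0.24 and NDUFV1 at -0.14, and none of the 3 passed (adjusted p = 0.0591, 0.202 and 0.299). NDUFS1, the largest of the iron-sulfur subunits, had a log2 fold change of 0.22 ± 0.14 (adjusted p = 0.23), with Ctrl 3 inside the NE range, and it was lower after the correction (-0.53, adjusted p = 0.000788). NDUFV2 could not be tested, since it had at most 11.9 normalized counts in any library.

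Of the 30 accessory subunits of complex I, 17 were lower and 1 was higher. The NDUFB series, which belongs to the membrane arm, was lower in 9 of 11, beside 5 of 13 in the NDUFA series. After the correction for GC content and length the counts were 6 of 11 and 6 of 13, and without Ctrl 3 they were 10 of 11 and 9 of 13. Over all tested genes 19.6% were lower after that correction and 32.5% without Ctrl 3. Whether the series differ was not tested. NDUFB2 had 1263, 1115 and 1689 normalized counts in Ctrl and 586, 687 and 646 in NE, a log2 fold change of -1.06 ± 0.16 (adjusted p = 0.000771). NDUFA2, an accessory subunit of the peripheral arm, had 486, 486 and 381 against 210.5, 211 and 242 (-1.02 ± 0.15, adjusted p = 0.000697). NDUFB8 showed the lowest value of the complex, -1.28 ± 0.30 (adjusted p = 0.00688), but at 131, 90.2 and 126 against 29.6, 56.2 and 60.3 normalized counts it rested on few reads. Of the exonic bases of NDUFB8, 33.8% are shared with a readthrough gene and 16.3% lie opposite HIF1AN. NDUFS7 has 36.1% and 15.3% of its exonic bases opposite each of 2 non-coding RNAs, and NDUFB2 has 27.9% opposite BRAF and 7.22% opposite NDUFB2-AS1. The sources used here do not say whether counting used the strand, so these 3 genes are uncertain. Like NDUFS7, NDUFB2 and NDUFB8 did not pass after the correction for GC content and length (adjusted p = 0.0816 and 0.0803).

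NDUFA5, an accessory subunit of the peripheral arm (chr7:123536997-123557904, minus strand), went the other way, with 548, 630.5 and 857 normalized counts in Ctrl and 1063, 1000.5 and 1029 in NE. No library overlapped, and the log2 fold change was 0.63 ± 0.16 (adjusted p = 0.0104). This direction depended on the correction for transcript composition given further on, under which the value was -0.21 (adjusted p = 0.0983). NDUFS5, with the highest level of the complex at 169 FPKM (fragments per kilobase of the canonical transcript, scaled to library size, mean of 6 libraries), did not pass the threshold (-0.38 ± 0.17, adjusted p = 0.0851). Of the tested subunits NDUFA7 had the lowest level at 1.1 FPKM, and at 4.84 to 22.0 normalized counts its value of -0.29 ± 0.64 (adjusted p = 0.733) turned to 0.25 after that correction. NDUFA7 shares 32.5% of its exonic bases with a protein-coding gene on the same strand, so its low level is uncertain.

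Of the 4 subunits of complex II, succinate dehydrogenase, 2 were lower. SDHA, the flavoprotein that oxidises succinate, fell from 2468, 2596 and 1878 normalized counts to 1132, 1459 and 1346 (-0.81 ± 0.15, adjusted p = 0.00214). SDHA shares 21.7% of its exonic bases with a protein-coding gene on the same strand. SDHC, a membrane anchor, was at -0.28 ± 0.10 (adjusted p = 0.0473), a call lost after both corrections (adjusted p = 0.286 and 0.117). SDHB, the iron-sulfur subunit whose promoter is printed above, had 1789.7, 1860.3 and 1600.2 in Ctrl and 1352, 1508 and 1495 in NE (-0.27 ± 0.11, adjusted p = 0.0634), so the groups did not overlap although the test was not passed. SDHB was called lower after both corrections and without Ctrl 3. SDHD, the other anchor, had 1006, 963 and 1113 against 1024, 1147 and 1164 (0.11 ± 0.11, adjusted p = 0.422), and its value was -0.24 (adjusted p = 0.0474) after the correction for GC content and length. In level per length SDHB (91.6 FPKM) stood first, followed by SDHC (78.1), SDHD (46.7) and SDHA (38.7).

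**Figure D3:**
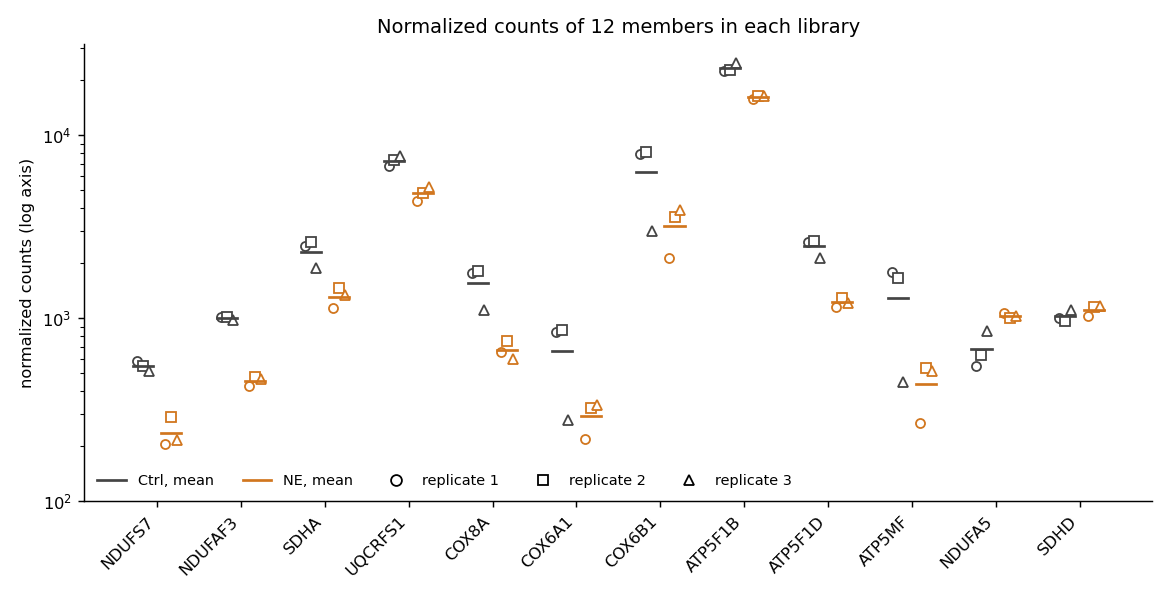
Normalized counts (vertical log axis) of 12 members in each of the 3 Ctrl (grey) and 3 NE (orange) libraries, with the group mean as a line. Ctrl 3 falls into the NE range for COX6A1, COX6B1 and ATP5MF, whereas the groups are apart for NDUFS7, NDUFAF3 and ATP5F1B, and NDUFA5 is higher with NE, a direction that the corrections for GC content turn.

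In complex III the catalytic Rieske iron-sulfur protein UQCRFS1 fell from 6795, 7303 and 7721 normalized counts to 4395, 4836 and 5220.4 (-0.60 ± 0.10, adjusted p = 0.00162). The core protein UQCRC1 was lower as well (-0.76 ± 0.12, adjusted p = 0.000977), whereas its partner UQCRC2 had 1159 to 1189.6 in Ctrl and 1278 to 1348 in NE (0.16 ± 0.10, adjusted p = 0.204). The small subunits UQCR10 (-0.91 ± 0.25, adjusted p = 0.0155) and UQCR11 (-0.85 ± 0.19, adjusted p = 0.00516) had the lowest values. A non-coding RNA lies opposite 24.5% of the exonic bases of UQCR10. After the GC correction UQCRC1 and UQCR11 no longer passed (adjusted p = 0.245 and 0.255), whereas UQCRC2 was at -0.44 (adjusted p = 0.0133). UQCRH, the hinge protein and the most abundant of the complex at 210.4 FPKM, had 3090.3 and 2994 in Ctrl 1 and Ctrl 2 but 1413 in Ctrl 3, beside 1154, 1534 and 1606 in NE. It did not pass in the uncorrected test (-0.73 ± 0.28, adjusted p = 0.0517), and passed after both corrections (-0.81, adjusted p = 0.0313, and -0.74, adjusted p = 0.0232). UQCRB had the same pattern of a low Ctrl 3 (751 against 1968 and 1982) and a log2 fold change of -0.04 ± 0.35 (adjusted p = 0.935).

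All 15 tested genes of complex IV, cytochrome c oxidase, had negative values, and 9 were lower; COX7A1 and NDUFA4L2, which have few reads, turned positive after both corrections described further on. COX8A, a small transmembrane subunit (chr11:63974620-63976543, plus strand), had 1767, 1813 and 1112 normalized counts in Ctrl and 653, 752 and 602 in NE, a log2 fold change of -1.20 ± 0.19 (adjusted p = 0.00101). A long non-coding RNA on the same strand covers 35.4% of its exonic bases. COX5B, which binds zinc and has both motifs in its promoter, had a log2 fold change of -1.05 ± 0.29 (adjusted p = 0.0142), with Ctrl 3 at 1300.4 just above NE 3 at 1262. COX4I1, a subunit known as a regulatory site for ATP, fell from 7047, 7352 and 5048 to 3037, 3768 and 3875 (-0.85 ± 0.16, adjusted p = 0.00226).

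COX6A1 and COX6B1 had values near -1 that did not pass the threshold, and in both Ctrl 3 lay inside the NE range. COX6B1, which faces the intermembrane space and was the most abundant gene of the complex at 559.5 FPKM, had 7869.8, 8106 and 2981 normalized counts in Ctrl and 2133, 3582 and 3899 in NE (-0.89 ± 0.37, adjusted p = 0.0711). COX6A1 had 846, 861 and 277 against 219, 324 and 334 (-1.03 ± 0.39, adjusted p = 0.0545). Without Ctrl 3 both were lower (-1.37, adjusted p = 2.55e-05, and -1.57, adjusted p = 2.51e-06).

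Complex IV uses alternative isoforms in muscle, testis and other tissues, and here the common form dominated in reads per length in most families. COX7A2 made up 83.5% ± 0.6 (SD, n = 3) of the COX7A reads per length in Ctrl and 80.6% ± 3.1 in NE, and NDUFA4 made up 97.4% ± 1.1 and 97.4% ± 0.6 beside NDUFA4L2. The COX7A shares rest on canonical transcripts of 462 bases for COX7A2 and 2282 for COX7A2L. In normalized counts COX7A2 had a mean of 2696 in Ctrl and 1574 in NE, beside 2536 and 1793 for COX7A2L. The muscle form COX7A1 had 20.6 normalized counts or fewer, COX6B2 and COX8C were too low to test, and COX4I2 and COX6A2 are not in the table. COX7B2, known from testis, was the exception: it held 52.6% ± 2.6 of the COX7B reads per length in Ctrl and 41.6% ± 4.5 in NE, with no overlap between the groups. These shares rest on canonical transcripts of 556 bases for COX7B2 and 2444 for COX7B. In normalized counts COX7B2 was the lower of them, with a Ctrl mean of 344 against 1376 for COX7B. The log2 fold change of COX7B2 was -0.75 ± 0.15 (adjusted p = 0.00313), beside -0.11 ± 0.17 (adjusted p = 0.619) for COX7B. COX7A2 (-0.78 ± 0.12, adjusted p = 0.000825), the supercomplex factor COX7A2L (-0.50 ± 0.10, adjusted p = 0.00324) and NDUFA4 (-0.69 ± 0.11, adjusted p = 0.00105) were lower.

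For the ATP synthase 11 of 19 tested genes were lower and no value was positive, although ATP5ME was at 0.05 after the GC correction and ATP5S at 0.20 without Ctrl 3. MYL5 lies opposite 61.3% of the exonic bases of ATP5ME, and CDKL1 opposite 41.8% of those of ATP5S. ATP5F1B, the catalytic beta subunit and the highest of all members at 650.5 FPKM, had 22421, 22819.9 and 24836 normalized counts in Ctrl and 15753, 16405 and 16454 in NE (-0.53 ± 0.09, adjusted p = 0.00165). ATP5F1D, the delta subunit of the central stalk, had 2621, 2649.5 and 2144 against 1154, 1293 and 1216 (-1.01 ± 0.12, adjusted p = 0.000262). After the correction for GC content and length neither passed, with ATP5F1B at -0.27 (adjusted p = 0.0717) and ATP5F1D at -0.28 (adjusted p = 0.0614). ATP5F1E, the epsilon subunit and the least abundant per length at 24.4 FPKM, did not pass in the uncorrected test (-0.32 ± 0.13, adjusted p = 0.063). It was lower after the GC correction (-0.99, adjusted p = 0.000627), after the correction for GC content and length (-0.92, adjusted p = 0.000847) and without Ctrl 3 (-0.28, adjusted p = 0.0438). Its level per length rests on a canonical transcript of 3610 bases. In normalized counts ATP5F1E had a mean of 1513 over all libraries, against 481 for ATP5MG. TUBB1 lies opposite 23.2% of the exonic bases of ATP5F1E.

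The 3 genes that encode the same mature c subunit of the proton-driven ring fell together: ATP5MC1 by 0.86, ATP5MC2 by 0.73 and ATP5MC3 by 0.72 on the log2 scale (adjusted p = 0.00136, 0.0247 and 0.001). The groups overlapped in the share of ATP5MC2 in their summed reads per length, at 68.9% ± 6.0 (SD, n = 3) in Ctrl and 70.5% ± 1.0 in NE. After the correction for GC content and length ATP5MC2 no longer passed (adjusted p = 0.232). ATP5MF, the f subunit of the membrane part, had the lowest value of all members at -1.39 ± 0.49 (adjusted p = 0.0388), and a wide spread, with 1782, 1655 and 449 normalized counts in Ctrl and 268, 532 and 516 in NE. Its adjusted p was 0.0511 after the GC correction, and its value was -2.03 without Ctrl 3. ATP5IF1, which inhibits ATP hydrolysis by the enzyme, had a log2 fold change of -0.37 ± 0.14 (adjusted p = 0.0483), although Ctrl 3 at 807 lay below NE 3 at 817.

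Of the 12 assembly factors chosen by name 4 were lower (33.3%) and 1 was higher, with a median log2 fold change of -0.22. Over all tested genes 25.5% were lower and 24.6% were higher. Among the 8 factors of complex I, 2 were lower (25%) and 1 was higher, with a median of -0.04. NDUFAF3, needed for the quinone module of complex I (chr3:49020459-49023495, plus strand), had 1016, 1022 and 981 normalized counts in Ctrl and 424, 476 and 469 in NE. The groups were far apart, with a log2 fold change of -1.14 ± 0.11 (adjusted p = 0.000122). NDUFAF8 (-0.94 ± 0.15, adjusted p = 0.00123), SDHAF1, which helps to insert iron-sulfur clusters into SDHB (-0.87 ± 0.12, adjusted p = 0.000468), and SDHAF2, which attaches the flavin to SDHA (-1.03 ± 0.23, adjusted p = 0.005), were lower. After the GC correction NDUFAF8 and SDHAF1 no longer passed (adjusted p = 0.149 and 0.243). SDHAF2 shares 44.8% of its exonic bases with a readthrough gene. NDUFAF7, a methyltransferase, was higher, with 219, 219.8 and 217 against 283, 275 and 338 (0.44 ± 0.14, adjusted p = 0.0258), a value that was 0.00 after the GC correction and 0.17 after the correction for GC and length.

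A change of at least 2-fold with the same adjusted p, the size criterion of the study's methods, was reached downwards by 10 members and upwards by 0. Over all tested genes 6.55% passed this rule downwards and 7.47% upwards. The 10 were ATP5F1D, ATP5MF, COX5B, COX8A, NDUFA2, NDUFAF3, NDUFB2, NDUFB8, NDUFS7 and SDHAF2, from each complex but III.

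More members were called without Ctrl 3. In 32 of the 96 tested members Ctrl 3 was at or below the highest NE library, and the median of Ctrl 3 over the members lay 0.12 below that of Ctrl 1 and Ctrl 2 on the log2 scale. Without Ctrl 3, 70 of 95 tested members were lower and 4 higher, at a background of 32.5% lower and 31.9% higher, and the median was -0.63. In 74 of these 95 every NE library lay below Ctrl 1 and Ctrl 2, an order shown by 38.5% of all tested genes. The 53 members called lower with all libraries stayed lower, and 17 joined them, among them COX6A1, COX6B1, NDUFA1, SDHB, UQCRB and UQCRH. NDUFS1 and SDHAF3 joined NDUFA5 and NDUFAF7 as higher, although NDUFS1 was lower after the correction for GC content and length and SDHAF3 after the GC correction (-0.46, adjusted p = 0.0196).

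Members are short genes, and both length and GC content of the transcript moved with the NE difference over the whole table. The canonical transcript had a median length of 898 bases in members and 3027 in all tested genes, while GC content was similar (46.9% and 48.0%). Across all 14955 tested genes with a canonical transcript, the Spearman correlation of the log2 fold change was 0.36 with length and -0.64 with GC content, and across the 96 members it was 0.42 and -0.56. These are correlations across genes, which share the 6 libraries. The difference between Ctrl 3 and the other Ctrl libraries had the same kind of trend in members, with 0.45 for length and -0.33 for GC content. Across all 14955 genes that difference had correlations of 0.25 with length and -0.52 with GC content. For NE 1 against the other NE libraries they were 0.40 and -0.18 across all 14955 genes, and 0.34 and -0.084 in members. Among the 1496 tested genes with the shortest transcripts, with a median length of 638.5 bases, the median log2 fold change was -0.33, and among the 1496 genes around a GC content of 46.7% it was 0.10. The part of length and GC content in the members' values was not tested beyond the corrections that follow.

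**Figure D4:**
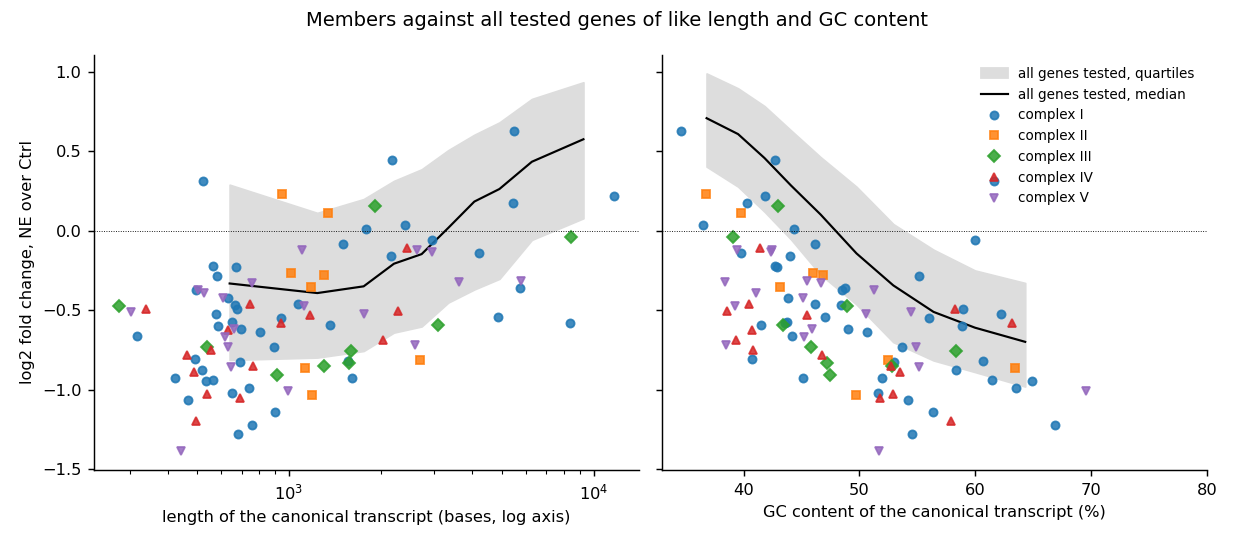
Log2 fold change of NE over Ctrl against the length (left, log axis) and the GC content (right) of the canonical transcript, with members coloured by complex and the median (line) and quartiles (grey) of all tested genes in 10 bins of equal size. The line of all genes runs from 0.71 in the GC-poorest bin to -0.70 in the GC-richest, and most members lie below it.

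The GC correction removed the trend with the GC content of the merged exons of a gene from each library. With it 63 members were lower and 0 were higher, at a background of 19.0% lower and 13.0% higher, with a median of -0.57. When GC content and length of the canonical transcript were both removed, 49 were lower and 0 higher, at a background of 19.6% and 10.9%, with a median of -0.47. These corrections thus differ in the measure of GC content as well as in the use of length. At an unadjusted p under 0.05 the count of higher members was also 0 in both, against 2 in limma without a correction. DESeq2 and edgeR on the uncorrected reads each gave 2 at an adjusted p under 0.05. The most positive value after the corrections was that of NDUFA13 (0.93, adjusted p = 0.226, and 1.02, adjusted p = 0.185). With the second correction 2 of 6 core subunits of complex I were lower, with a median of -0.36 instead of -0.87, and ATP5IF1 no longer passed (adjusted p = 0.746). Of the common subunits of complex IV, 9 of 12 were lower with a median of -0.64, beside 8 of 12 without the correction. Whether the trend is technical or part of the response cannot be told apart in these libraries.

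**Figure D5:**
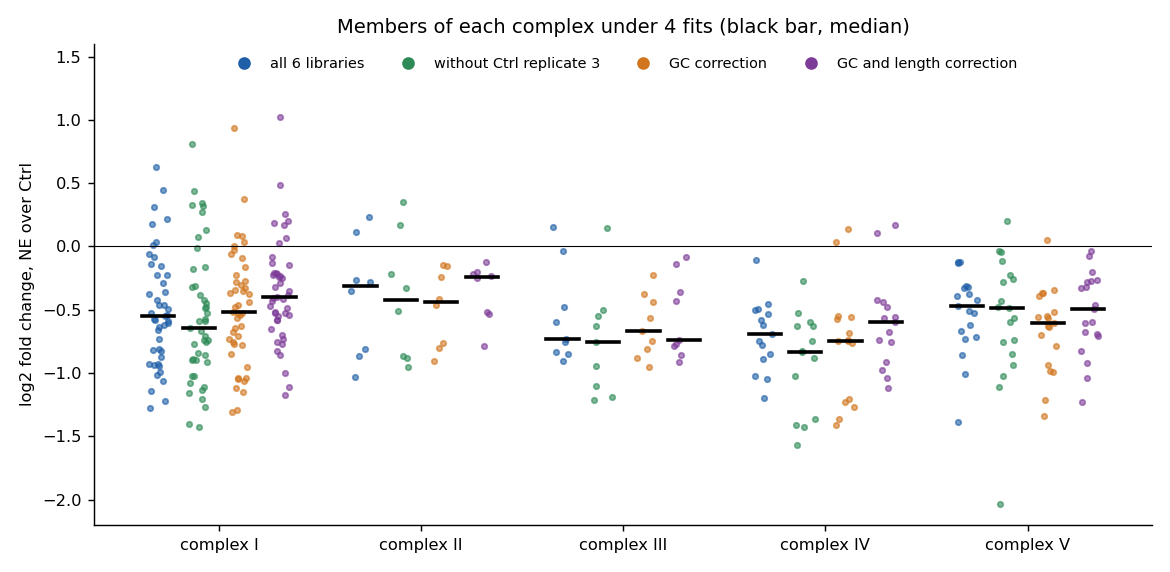
Log2 fold change of NE over Ctrl (vertical axis) of the tested members of each complex with all 6 libraries, without Ctrl 3, after the GC correction and after the correction for GC content and length, with the median as a black bar. The medians lie below 0 in all 5 complexes under these 4 fits.

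In all of these 4 fits 31 members were lower: 11 of complex I, 2 of complex II, 3 of complex III, 9 of complex IV and 6 of complex V. Over all genes tested in the 4 fits the share was 10.5%. They include NDUFA2 and NDUFAF3, SDHA and SDHAF2, UQCRFS1 and UQCR10, COX4I1, COX5B, COX7A2, COX8A and NDUFA4, and the c subunit genes ATP5MC1 and ATP5MC3. ATP5F1B passed in 3 of the 4. The NRF1 core stood in 6 of 45 lower members with a promoter and in 6 of 31 that did not pass, and the ETS core in 11 of each. COX5B and SDHB, both with both cores, had log2 fold changes of -1.05 and -0.27.

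Of the other genes of the pathway, the 13 subunits encoded in mitochondrial DNA had 3 genes called higher, at a background of 24.6%, and 0 called lower, also 0 with edgeR, with DESeq2 and at an unadjusted p under 0.05. Their median log2 fold change was 0.29. Without Ctrl 3, 7 of the 13 were higher, with a median of 0.47, at a background of 31.9%. After the GC correction 1 was higher and 1 lower, at a background of 13.0% higher and 19.0% lower. With GC content and length both removed, 0 were higher and 1 was lower, at a background of 10.9% and 19.6%. MT-ND3, named after its values were seen, was at -0.23 (adjusted p = 0.189) and was lower after the GC correction (-0.79, adjusted p = 0.00124) and after the correction for GC content and length (-0.60, adjusted p = 0.0164). MT-ND4L had 15221, 14305 and 16918 normalized counts in Ctrl and 37935, 25094 and 22612 in NE (0.85 ± 0.18, adjusted p = 0.00403), followed by MT-ND5 (0.69 ± 0.20, adjusted p = 0.017) and MT-CO1 (0.56 ± 0.18, adjusted p = 0.0259). NE 1 was the highest in all 3, and was also the library with the lowest share of reads on the members. After the correction for GC content and length none of the 3 passed (adjusted p = 0.0569, 0.0613 and 0.0705). The difference between nuclear and mitochondrial subunits was not tested.

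The lists that follow are read against the 25.5% of all tested genes called lower and the 24.6% called higher. Electron carriers and their synthesis were lower in 6 and higher in 1 of 16 genes (median -0.29). CYC1, the cytochrome c1 of complex III, fell from 4179, 3782 and 3589.5 normalized counts to 1916, 1879 and 1822 (-1.04 ± 0.10, adjusted p = 0.000122), and the ubiquinone synthesis genes COQ8B (-0.79) and COQ8A (-0.71) were lower. None of these 3 passed after the correction for GC content and length (adjusted p = 0.0599, 0.267 and 0.23). Assembly factors outside the name rule were lower in 16 and higher in 4 of 36 tested of 39 (median -0.42), and those with the smallest adjusted p were COA3 (-1.10), COX14 (-1.06) and ECSIT (-0.87). Matrix enzymes of the citric acid cycle were lower in 8 and higher in 3 of 13 (median -0.45), with DLD at 0.71, IDH3G at -0.91 and DLST at -0.58. After the correction for GC content and length the counts of lower and higher genes were 2 and 0 for carriers, 15 and 0 for assembly factors and 6 and 0 for citric acid cycle enzymes, at the background of 19.6% and 10.9%.

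Transcription regulators of respiratory genes were higher in 9 and lower in 4 of 17, with a median of 0.43. Without Ctrl 3 they were higher in 10 and lower in 4, at a background of 31.9% and 32.5%. NFE2L2 (1.35 ± 0.12, adjusted p = 9.85e-05), GABPA, the DNA-binding part of GABP (1.12 ± 0.14, adjusted p = 0.00033), and its partner GABPB2 (0.89 ± 0.15, adjusted p = 0.00146) were higher. GABPB1, the other partner in the list and named with its values seen, was at 0.07 ± 0.15 (adjusted p = 0.715). It was lower after the GC correction (-0.52, adjusted p = 0.00694) and after the correction for GC content and length (-0.62, adjusted p = 0.00172). GABPB2 did not pass after the latter (0.36, adjusted p = 0.114). GABPA lies opposite 34.4% of the exonic bases of the member ATP5PF, which was lower (-0.39 ± 0.13, adjusted p = 0.0298). NRF1, named here because its motif was searched and with its value seen, had 367, 359 and 541 normalized counts in Ctrl and 279, 262 and 261 in NE (-0.63 ± 0.17, adjusted p = 0.0143). After the correction for GC content and length 7 regulators were lower and 2 higher, the latter being NFE2L2 (1.01) and GABPA (0.35), and the list's median was -0.16.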

How the data were processed

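RNA-seq of NCI-H1299 cells covered 3 Ctrl and 3 NE libraries, grouped by the sample records. The members, lists and tests were chosen with earlier results of these data known. Per the labels the authors used HISAT2 2.0.5, hg38 and featureCounts 1.5.0-p3. The annotation they counted on and the strand setting are not given in the sources used here. FPKM is the unit named in the methods. The signal deposited by the authors is instead a read count per gene that was scaled with a size factor: 100% of the values were whole reads within 0.01 once the factor was removed, so the unit differs from the one in the methods. The table has no other column of per-sample values, and no column of the authors' comparisons was used.

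No molecular identifiers were used, so intervals from counting would understate the error. limma 3.58.1 (lmFit, eBayes with trend) was run on log2(value + 1) for 15013 genes with a mean of at least 10, with Benjamini-Hochberg adjustment over all of them; fold changes are on that scale and understate those of low genes. With 3 libraries per group an exact permutation test cannot go below p = 0.1. The corrections fitted natural splines (5 degrees of freedom) to each library and subtracted them. Alternatives were pseudocounts of 0.5 and 10, no filter, a mean of at least 100, quantile and TMM scaling, edgeR 4.0.16, DESeq2 1.42.0, a replicate block, each library left out and a 2-fold criterion. The canonical transcript correction, and both GC corrections without Ctrl 3, were added after the data were seen. GENCODE v44 gave coordinates, lengths and exon overlaps, and 25813 of 26025 identifiers matched. In data simulated for the NE against Ctrl comparison, limma recovered 85.5% of 200 genes changed by 1.5 (log2) and called 5 unchanged genes among 14861. With a GC trend added it called 2451 unchanged genes among 14804, and 3 after the correction. The added trend was a straight line, the same in each NE library, and the correction used the same GC values. Trends with length, or that differ between libraries of a group, were not simulated. How the correction acts on such trends was thus not tested.

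Named genes were, in each complex, the 2 most raised and 2 most lowered subunits past the threshold, the most and least abundant, isoform families, SDH subunits, ATP5IF1, called assembly factors, members past 2-fold and up to 3 genes per list. Members named outside this rule (NDUFS8, NDUFV1, NDUFS1, NDUFV2, UQCRFS1, UQCRC1 and UQCRC2 for the catalytic core, and those listed for a motif, a low Ctrl 3 or a call in all 4 fits) were chosen after their values were seen. The result of 1 gene of complex I is not reported here by itself.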

Additional observations from a re-analysis of the deposited data

How the results depend on the processing

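The median log2 fold change of the members was negative in each alternative run. The count of lower members was 50 to 59 under other pseudocounts and filters, quantile and TMM scaling, edgeR and DESeq2, and 2 were higher in each of them. It was 10 with a 2-fold criterion, with 0 higher, and 48 with structural subunits alone, with 1 higher. No member was higher after the GC correction, the GC and length correction of merged exons or of the canonical transcript, the block with the GC correction, and the GC and canonical corrections without Ctrl 3: 0 in each case. Leaving out each library in turn gave 41 to 70 lower and 1 to 4 higher members and medians from -0.66 to -0.51. The lower count fell most without NE 1, to 41. The share of all tested genes called lower also moved with the setting. It was 25.5% in the main fit, 32.5% without Ctrl 3 and 19.0% after the GC correction. For the other settings the share is not given here, so their counts alone do not set the members apart from other genes.

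The replicate numbers did not pair the samples, since same-numbered libraries had correlations of their deviations of -0.16, 0.08 and -0.15. With the replicate block 46 members were lower and 1 higher, and with the block and the GC correction 53 and 0.

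Of the 40 named members tested, 30 kept their direction in every alternative and 12 also their side of the threshold. After the GC correction, the merged-exon GC and length correction, the block with the GC correction and the canonical transcript correction, in this order, COX7A1 was at 0.14, 0.16, 0.14 and 0.11, NDUFA4L2 at 0.037, 0.10, 0.037 and 0.17, NDUFA5 at -0.093, -0.19, -0.093 and -0.21, NDUFA7 at 0.085, 0.18, 0.085 and 0.25, and SDHD at -0.15, -0.035, -0.15 and -0.24. With the GC correction and no Ctrl 3, NDUFA5 was at -0.057, NDUFAF7 at -0.057 and SDHD at -0.099, and with the canonical correction and no Ctrl 3, NDUFA4L2 was at 0.045, NDUFA5 at -0.21, NDUFA7 at 0.039, NDUFAF8 at 0.020, SDHAF1 at 0.047 and SDHD at -0.24. UQCRB was at 0.034 after quantile scaling. Leaving out each library in turn gave -0.50 to 0.20 for UQCRB, -0.27 to 0.032 for COX7B and -0.65 to 0.053 for NDUFA7. The cause of these changes was not tested.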
